A study of Mus musculus with 13 samples.

Results

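Desert hedgehog signalling was followed here through 8 genes chosen by name: the ligand gene Dhh, the receptor genes Ptch1 and Hhip, the signal transducer Smo, the transcription factor genes Gli1, Gli2 and Gli3, and the inhibitor gene Sufu. All 8 were found among the 25965 genes of the deposited table. Whole testes of mice aged 15 weeks had been sequenced in 13 libraries, 6 of them labelled Wfdc15a-/- (KO), 4 Wfdc15a+/- (Het) and 3 wild type (WT). The sources used here do not say how the allele was made. The series' design text takes the Het and WT mice together as controls (n = 7) and asks what Wfdc15a does in spermatogenesis. The titles carry a number, called the title number here, and the sources do not explain it. Title number 1 covers KO replicates 1 to 3 and Het replicate 1, and number 2 covers KO replicates 4 to 6, Het replicates 2 to 4 and the 3 WT libraries.

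Hedgehog ligands are secreted proteins that bind Patched receptors. Without ligand, Patched keeps Smoothened, the product of Smo, inactive; with ligand, Smoothened is released and GLI transcription factors turn on target genes, among which Ptch1, Hhip and Gli1 are the classical ones. In the mouse testis Dhh is made by Sertoli cells, while peritubular and interstitial cells, including Leydig cells and their precursors, receive the signal, and male mice without Dhh are infertile.

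The libraries held 4.51 to 11.13 M reads, and values are in RPM, reads scaled to an equal library total. Wfdc15a RNA was still present in the libraries labelled KO, at 44.6 ± 21.8 RPM (SD, n = 6) against 65.5 ± 12.5 RPM in the controls (n = 7; two-sided exact permutation p = 0.0338) with 5 of 6 below the control mean. Leaving out any 1 of WT replicate 1, Het replicates 2 or 4 or KO replicates 1, 2 or 3 raised that p above 0.05, up to 0.0821. The KO libraries of title number 2 held 61.2 RPM against 28.1 RPM in those of number 1. Because that level does not set every such library apart, "labelled KO" is kept below. The labels name no litter or batch, and p-values judge the difference between groups against the spread between these libraries.

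Dhh, the ligand gene, rose in the libraries labelled KO. It stood at 36.9, 38.4, 26.3, 22.8, 21.3 and 33.3 RPM in KO replicates 1 to 6. The Het libraries 1 to 4 held 13.8, 16.5, 15.1 and 14.2 RPM, and the WT libraries 1 to 3 held 15.5, 16.4 and 21.0 RPM. All 6 libraries labelled KO lay above all 7 controls, although KO replicate 5, at 21.3 RPM, stood only just above WT replicate 3. The means were 29.8 ± 7.34 RPM (SD, n = 6) in the libraries labelled KO and 16.1 ± 2.41 RPM (n = 7) in the controls. On the log2(RPM + 1) scale used for all tests the difference was 0.83 (SE 0.161, 95% interval 0.50 to 1.16; limma adjusted p = 0.000803), a 1.78-fold rise of RPM + 1. Of all 16235 tested genes 18.4% were called higher in this comparison, 6.18% were called lower. Every library labelled KO lay above every control in 5.06% of them and below in 2.89%. Each library held 84 to 309 Dhh reads. In whole testis, a change in the number of cells of a type and a change in the RNA of each such cell cannot be told apart.

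In the deposited mm10 table Dhh occupies bases 98893031 to 98898540 of chromosome 15 (minus strand) and overlaps no other listed gene. The sequence just upstream of its start site is shown, with that of Ptch1, because these were the 2 members that rose. The 250 bases before the RefSeq start site (GRCm38.p6, 5′ to 3′ on the strand of the gene) are chr15:98898541-98898790 for Dhh and chr13:63565736-63565985 for Ptch1, both on the minus strand. Capitals mark the GC box letters GGGCGG on either strand.
Dhh: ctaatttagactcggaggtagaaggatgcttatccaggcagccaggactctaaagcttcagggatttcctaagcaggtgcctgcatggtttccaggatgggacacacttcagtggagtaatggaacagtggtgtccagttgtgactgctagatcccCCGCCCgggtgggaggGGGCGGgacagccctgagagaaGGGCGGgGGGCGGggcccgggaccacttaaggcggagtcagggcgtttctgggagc
Ptch1: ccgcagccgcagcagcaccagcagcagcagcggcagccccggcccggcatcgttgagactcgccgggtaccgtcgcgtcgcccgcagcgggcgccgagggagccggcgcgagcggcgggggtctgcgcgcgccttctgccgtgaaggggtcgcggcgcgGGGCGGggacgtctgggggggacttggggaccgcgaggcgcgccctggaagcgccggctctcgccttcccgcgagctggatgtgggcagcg
The Dhh window held 4 GC boxes, which start 94, 78, 56 and 49 bases before the start site, and the Ptch1 window held 1, at 91 bases. This motif is in 32.7% of the 32851 such windows from RefSeq. The GLI site GACCACCCA and its shorter core CCACCCA, which share letters, were searched on both strands in the windows of the 7 members that the table covers, and so were the SOX core AACAAT and the NR5A1 site CAAGGTCA. None of the windows held the GLI site (0.225% of all windows hold it), the GLI core (8.11%) or the NR5A1 site (1.33%), and only that of Sufu held the SOX core (9.42%). The Ptch1 window lies inside the span that GENCODE M21 gives the gene, whose annotation also begins farther upstream.

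Ptch1 codes for the receptor that holds Smoothened inactive until ligand binds, and is itself a target of the pathway. It rose too, from a low level. KO replicates 1 to 6 held 2.52, 4.23, 8.18, 1.99, 6.98 and 8.15 RPM. Het replicates 1 to 4 held 2.15, 1.89, 0.964 and 1.35 RPM, and WT replicates 1 to 3 held 0.708, 2.28 and 1.26 RPM. Of the libraries labelled KO 5 lay above all controls, while KO replicate 4, at 1.99 RPM and 9 reads, lay among them. The difference was 1.24 (SE 0.296, 95% interval 0.62 to 1.85; limma adjusted p = 0.00444) between means of 5.34 ± 2.79 RPM (SD, n = 6) and 1.51 ± 0.601 RPM (n = 7). Depth matters here: the controls had 7 to 21 reads each and the libraries labelled KO 9 to 71, and the pseudocount of 1 RPM compresses such low values.

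Hhip, a membrane glycoprotein that binds hedgehog ligands and dampens the signal, is another target of the pathway. It did not pass the test. The libraries labelled KO ranged over 0.456, 1.36 and 3.27 RPM (lowest, median and highest), against 0.505, 1.21 and 3.76 RPM in the controls, so the groups overlapped over almost their whole range. The difference was 0.09 (SE 0.331, 95% interval -0.60 to 0.78; limma adjusted p = 0.871). Hhip had 3 to 28 reads per library, and the variance of its reads was 5.61 times that of counting in the libraries labelled KO and 7.20 times in the controls.

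Smo codes for the transducer that Patched holds back. Its 6 libraries labelled KO held 0.420, 5.22, 6.38, 4.21, 6.07 and 3.79 RPM in replicates 1 to 6. The controls ran from 0.138 RPM in Het replicate 3 to 8.58 RPM in WT replicate 2. Replicate 1 was thus far below the other libraries labelled KO, and WT replicate 2 was above all of them. These extremes are 1 read (exact Poisson 95% interval 0.0253 to 5.57 reads) and 64 reads (49.3 to 81.7), so the spread within the controls was wider than counting error. The variance of the Smo reads was 7.66 times that of counting alone in the libraries labelled KO and 25.8 times in the controls. For Dhh it was 11.4 times in the libraries labelled KO and 2.91 times in the controls, and for Ptch1 9.001 and 2.07 times. The difference between the groups was 0.77 (SE 0.443, 95% interval -0.15 to 1.70; limma adjusted p = 0.214).

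The GLI genes code for the transcription factors at the end of the pathway: Gli2 acts mainly as an activator, Gli3 mainly as a repressor, and Gli1 as an activator that is itself induced. None of the 3 was shown to change between the libraries labelled KO and the controls. Gli1, often read as a gauge of pathway activity, had 0 to 12 reads per library. Its mean of 0.598 ± 0.515 RPM (SD, n = 6) in the libraries labelled KO and 0.686 ± 0.615 RPM (n = 7) in the controls was under the minimum of 1 RPM for the fit (difference -0.06; two-sided exact permutation p = 0.814). KO replicate 1 had no Gli1 read. The exact Poisson 95% interval of that count, for counting error only, runs up to 3.69 reads. Gli1 also overlaps Arhgap9 on the other strand in the table, and the sources do not say whether counting used the strand.

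The values of Gli2 and Gli3 in the libraries labelled KO were not alike between the title numbers. Gli2 held 2.24, 7.46 and 1.47 RPM in KO replicates 1 to 3 of number 1 and 1.33, 0.456 and 0.574 RPM in KO replicates 4 to 6 of number 2, against 0.360 to 3.95 RPM in the controls. Gli3 held 4.06, 2.11 and 5.07 RPM in KO replicates 1 to 3 and 1.99, 0.759 and 1.61 RPM in KO replicates 4 to 6, against 0.537 to 3.17 RPM in the controls. For both genes every KO library of number 2 lay below every KO library of number 1, as did 9.79% of all tested genes. The difference, number 2 minus number 1, was -1.22 (SE 0.499) for Gli2 and -0.93 (SE 0.413) for Gli3, and neither passed over all genes (limma adjusted p = 0.317 and 0.362). All libraries labelled KO against all controls gave 0.16 (95% interval -0.63 to 0.94) for Gli2 and 0.13 (-0.52 to 0.77) for Gli3.

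Sufu binds GLI proteins and keeps them inactive, and it was by far the most abundant member. KO replicates 1 to 6 held 194, 200.2, 158, 158, 168 and 175 RPM. Het replicates 1 to 4 held 194, 173, 213 and 211 RPM, and WT replicates 1 to 3 held 226, 218 and 196 RPM. All 6 libraries labelled KO lay below the control mean, but the groups overlapped. The difference was -0.22 (SE 0.0842, 95% interval -0.40 to -0.05; limma adjusted p = 0.0612). It was called lower once the values were scaled by the median of ratios (-0.37, adjusted p = 0.00374) or recovered reads were fitted with limma-voom (-0.36, adjusted p = 0.00471). With quantile normalization it was -0.20 (adjusted p = 0.0995). Leaving out Het replicate 2, KO replicate 1 or KO replicate 2 also gave a call (-0.26, -0.25 and -0.26; adjusted p = 0.0284, 0.0474 and 0.0376). The scaling moved all genes: of 16235 tested, 1003 were called lower as reported, 1716 with median of ratios and 1688 with limma-voom. Relative to the median of all genes Sufu hardly moved, at -0.38, -0.39 and -0.38 in these settings, and was -0.19 with quantile normalization.

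**Figure D1:**
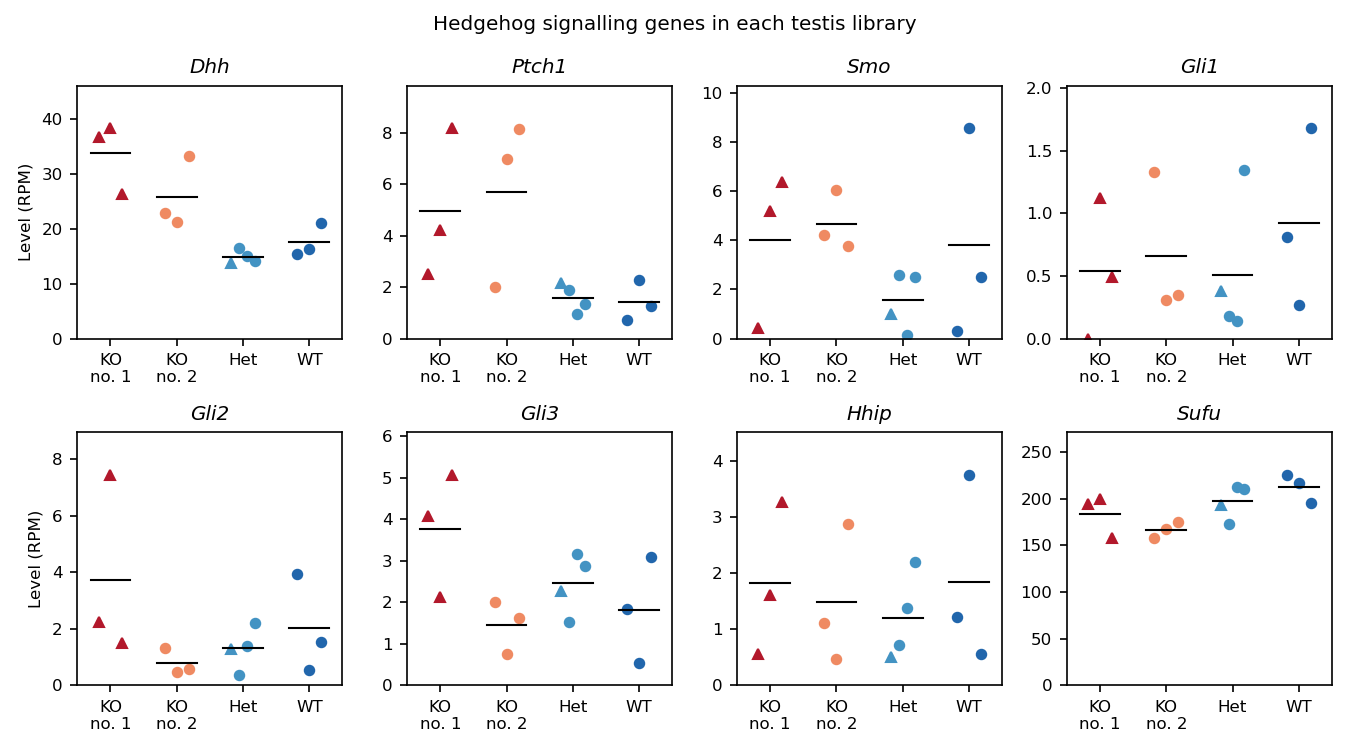
Level of each of the 8 hedgehog genes in RPM (linear axis from 0) in the 3 KO libraries of title number 1, the 3 of number 2, the 4 Het and the 3 WT libraries. Triangles are libraries of title number 1 and circles of number 2, and bars are group means; the 6 KO libraries of Dhh lie above the 7 controls, and those of Smo, Gli1, Gli2, Gli3 and Hhip overlap them.

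Per length of annotated exon (GENCODE M21), Sufu stood at 22.8 ± 2.35 RPM per kb in the libraries labelled KO and 26.6 ± 2.33 in the controls (SD, n = 6 and 7). Dhh came next at 6.78 ± 1.67 RPM per kb in the libraries labelled KO and 3.65 ± 0.548 in the controls. The other 6 members were all below 1: Smo held 0.774 ± 0.387 and 0.450 ± 0.512, Gli3 0.271 ± 0.170 and 0.228 ± 0.09996, and Gli1 0.120 ± 0.103 and 0.137 ± 0.123 RPM per kb in the libraries labelled KO and the controls. Ptch1 was at 0.377 ± 0.197 RPM per kb in the libraries labelled KO and, at 0.107 ± 0.0424, the lowest of the 8 in the controls. Gli2 held 0.328 ± 0.383 and 0.233 ± 0.175 RPM per kb, and Hhip 0.181 ± 0.131 and 0.162 ± 0.128, in the libraries labelled KO and the controls. Neighbours in the order of these 6 means lay within the spread of the libraries in both groups. The exon lengths are those of the annotation, whose gene ends differ from those of the table for Dhh, Ptch1, Smo, Gli1 and Hhip.

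Of the 7 tested members 2 were called higher and none lower, that is 28.6% against the 18.4% of all genes called higher, and their median difference was 0.16, the same as the 0.16 of all tested genes. The median of the members was thus that of the background. Relative to the median of all genes, Dhh differed by 0.67 and Ptch1 by 1.08. With median-of-ratios scaling the median of all genes was 0.02, and the share of higher among called genes was 49.9% in place of 74.9%. Dhh was then 0.66 and Ptch1 1.10 above that median, and both remained called (adjusted p = 0.00412 and 0.00828).

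The KO libraries of each title number were also set against the 7 controls. Dhh was 1.02 higher with number 1 (SE 0.188, limma adjusted p = 0.000609) and 0.64 higher with number 2 (SE 0.188, adjusted p = 0.0291). Ptch1 was 1.17 higher with number 1 (SE 0.380, adjusted p = 0.0304) and 1.30 higher with number 2 (SE 0.380, adjusted p = 0.0278). These 2 of 7 members were called higher in each, where 17.4% and 8.48% of all genes were called higher and 5.78% and 4.69% lower (23.1% and 13.2% in either direction). Both comparisons use the same controls. The KO libraries of the 2 numbers did not differ beyond their spread for Dhh (-0.39, 95% interval -0.85 to 0.07) or Ptch1 (0.12, -0.81 to 1.06), and no member was called between them (limma, 0.345% of all genes called, 0.154% higher; Gli2 and Gli3 had unadjusted p under 0.05). Within title number 2 alone, with 3 libraries labelled KO and 6 controls, Ptch1 remained called (1.36, SE 0.373, adjusted p = 0.0294; 9.33% of all genes called, 5.36% higher and 3.97% lower). Dhh was no longer called there, at 0.60 (SE 0.198, adjusted p = 0.0638). Title number 1 has 1 control, so no within-number value is given for it.

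Against the Het libraries alone Dhh was 0.92 higher (SE 0.186, limma adjusted p = 0.00132) and Ptch1 1.18 higher (SE 0.352, adjusted p = 0.0197), where 16.9% of all genes were called higher and 5.15% lower (22.1% in all). Against the WT libraries alone Dhh was 0.70 higher (SE 0.204, adjusted p = 0.0341) and Ptch1 1.31 higher (SE 0.385, adjusted p = 0.0367), with 6.05% of all genes called higher and 3.34% lower (9.39% in all). Het against WT called no member and no gene at all in limma, with 957 of 16235 genes at an unadjusted p under 0.05 and none of the members among them. The Het minus WT difference was -0.22 for Dhh (95% interval -0.68 to 0.24) and 0.13 for Ptch1 (-0.74 to 0.99).

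**Figure D2:**
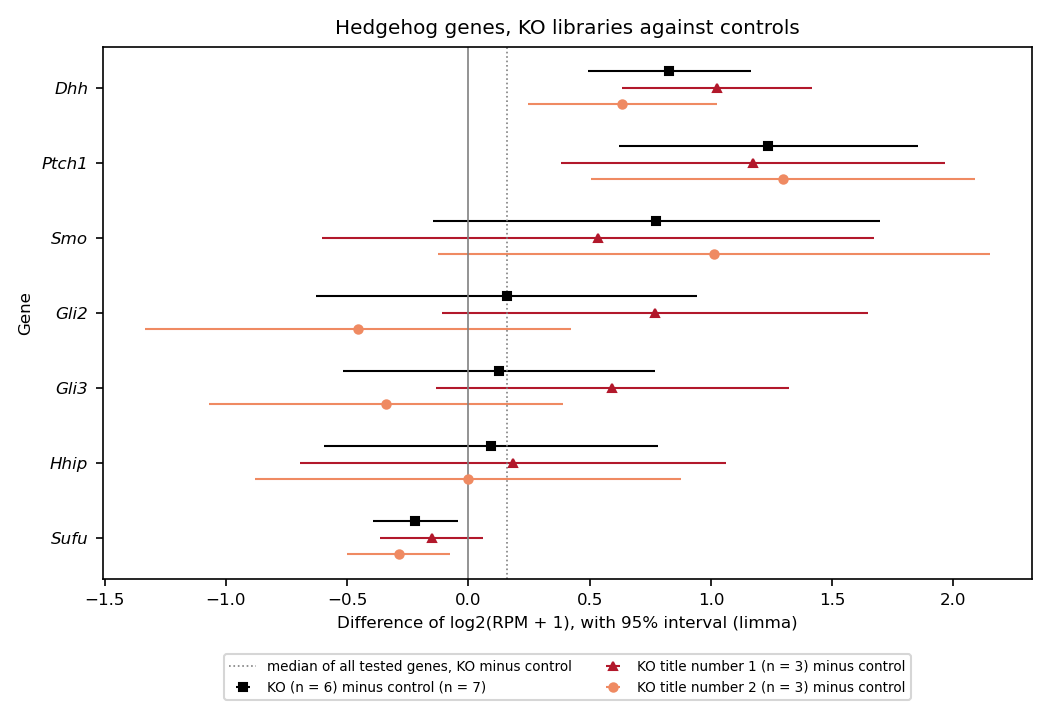
Difference of log2(RPM + 1) from the 7 controls, with 95% limma intervals, for the 7 tested members; squares are all 6 KO libraries, triangles the 3 of title number 1 and circles the 3 of number 2, and the dotted line is the median of all tested genes at 0.16. The intervals of Dhh and Ptch1 lie above 0 in all 3 rows, and the estimates of Gli2 and Gli3 lie above 0 for number 1 and below 0 for number 2.

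Markers of the cells that send and receive the signal changed as well. Of 22 tested Sertoli markers 11 rose and none fell (median 0.61), among them Clu (1.02), Wt1 (0.87) and Cldn11 (0.92), and their summed level was 2984 to 4484 RPM in the libraries labelled KO and 1609 to 2680 RPM in the controls. Of 16 tested Leydig markers 12 rose and none fell (median 0.91), among them Cyp17a1 (0.94), Nr5a1 (1.15) and Hsd17b3 (1.67), with 6240 to 10680 RPM in the libraries labelled KO and 2670 to 4692 RPM in the controls. Peritubular myoid markers were mixed: of 12 tested, 4 rose, among them Myl9 (0.60) and Myh11 (0.76), and Actg2 fell by 0.66. Their summed level was 393 to 538 RPM in the libraries labelled KO and 423 to 519 RPM in the controls. Actg2 alone made up a large part of these sums, with means of 169 RPM in the libraries labelled KO, 268 RPM in Het and 262 RPM in WT. The overlap of the sums is therefore not that of the other markers. Every listed marker found in the table had reads. Of 15 elongating spermatid markers 15 fell, and they summed to 9209 to 13120 RPM in the libraries labelled KO and 19020 to 23920 RPM in the controls. Among the other lists, macrophage markers rose in 10 of 13, stromal in 4 of 10 and endothelial in 3 of 12, and round spermatid markers fell in 4 of 11. Of 13 spermatocyte markers 2 rose and 1 fell, and none of 9 markers of undifferentiated spermatogonia was called. Of all tested genes 18.4% were called higher and 6.18% lower. Against WT alone 4 of 22 Sertoli, 10 of 16 Leydig, 0 of 12 peritubular and 4 of 13 macrophage markers were called higher. Within title number 2 these counts were 3, 10, 0 and 3. In these lists 1 peritubular marker was called lower in each setting. The shares of all genes called higher were 6.05% and 5.36%, and lower 3.34% and 3.97%. What part the lower spermatid RNA has in the values of Dhh and Ptch1 was not tested.

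Dhh was set against the Sertoli markers of the same library, as its log2(RPM + 1) less the mean of the 22 markers. This difference was 0.29, 0.40, -0.38, -0.34, -0.44 and 0.33 in KO replicates 1 to 6, and -0.45 to -0.06 in the 7 controls. KO replicates 1, 2 and 6 lay above all controls, and KO replicates 3, 4 and 5 lay within the range of the controls, so that the libraries labelled KO fell into 3 and 3, which does not follow the title number. The mean was -0.02 ± 0.40 (SD, n = 6) in the libraries labelled KO and -0.24 ± 0.13 (n = 7) in the controls, a difference of 0.22 (two-sided exact permutation p = 0.184; 0.14 to 0.30 without any 1 library). A rise of Dhh beyond that of the Sertoli markers was not shown.

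Ptch1 was set in the same way against the markers of 3 cell types. Against Leydig markers the difference between the groups was 0.30 (two-sided exact permutation p = 0.389; 0.13 to 0.49 without any 1 library), with 3 of 6 libraries labelled KO above the control mean. With smaller pseudocounts, the list's median or title number 2 alone this difference was larger, at 0.41 to 0.68 (exact p = 0.137 to 0.256). Against Sertoli markers it was 0.63 (exact p = 0.0682), and against peritubular myoid markers 0.83 (exact p = 0.0291), with 5 of 6 above the control mean. The peritubular difference was 0.53 (exact p = 0.171) when the list was summarised by its median, and 0.91 (exact p = 0.0714) within title number 2. Without any 1 of WT replicates 1 or 3 or KO replicates 3, 5 or 6 its exact p was 0.0543 to 0.0671. The Sertoli difference passed 0.05 with a pseudocount of 0.1 RPM (0.99, exact p = 0.0350) and without any 1 of Het replicate 1, KO replicate 1 or KO replicate 4 (exact p = 0.0227 to 0.0498).

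The markers themselves were higher in the libraries labelled KO, by 0.61 for the mean of the Sertoli list, 0.93 for the Leydig list and 0.41 for the peritubular list, so a gene at the same level in both groups gives the negative of these values. Relative to Sertoli markers Sufu stood at 2.52 ± 0.22 log2 units in the libraries labelled KO (SD, n = 6) and 3.35 ± 0.27 in the controls (n = 7), a difference of -0.83. All 6 lay below all controls, as did 13.4% of all tested genes. Relative to Leydig markers the difference of Sufu was -1.15, again with all 6 below all controls, where 33.6% of all tested genes did so, and relative to peritubular markers it was -0.63. Relative to Leydig markers the differences of Gli1, Gli3 and Hhip were -0.997, -0.81 and -0.84, close to what a gene with no difference gives. In all, 22 such differences were computed over the members, and their p-values are unadjusted.

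**Figure D3:**
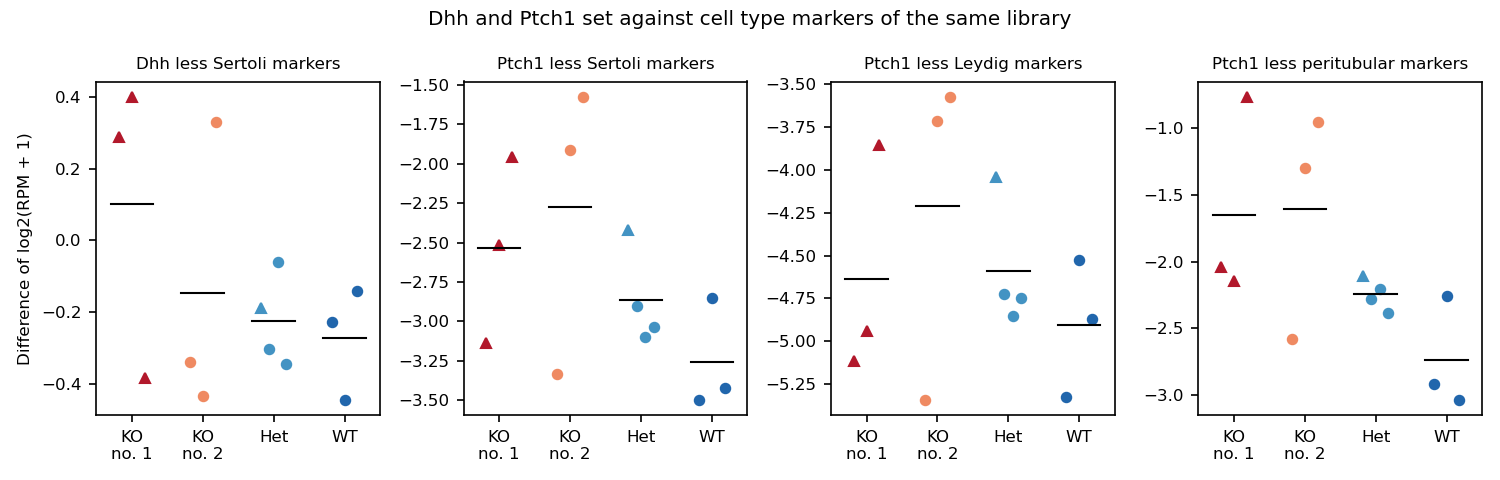
Log2(RPM + 1) of Dhh less the mean of the Sertoli markers, and of Ptch1 less the mean of the Sertoli, Leydig and peritubular myoid markers, in each library; triangles are title number 1, circles number 2, bars group means. For Dhh, 3 of the 6 KO libraries lie above all 7 controls and 3 lie within their range.

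The rest of the pathway was read from 59 further genes in 3 lists, of which 56 were in the table and 48 were tested. Of the 48, 11 rose and 1 fell, which is 22.9% and 2.08% against 18.4% and 6.18% of all genes, with a median of 0.11 against 0.16. These lists thus stood near the background as well. Of the 11 tested genes for ligand handling and reception 1 rose and 1 fell, of the 25 for transduction and the cilium 6 rose, and of the 13 counted as responsive to hedgehog in other tissues 4 rose; the lists share 1 gene.

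Among the co-receptors, which help Patched to bind ligand, Cdon rose. It held 7.15, 16.2, 8.18, 5.10, 0.456 and 3.90 RPM in KO replicates 1 to 6, against 0 to 2.53 RPM in the controls. KO replicates 1, 2, 3, 4 and 6 lay above all controls and KO replicate 5 was among the lowest libraries. The difference was 1.49 (SE 0.426, limma adjusted p = 0.0145). Using only KO replicates 4 to 6 it was 0.67 (adjusted p = 0.338), and using only KO replicates 1 to 3 it was 2.30 (adjusted p = 0.000959), and the call was also lost in limma-voom (2.00, adjusted p = 0.123) and against WT or Het alone (adjusted p = 0.0615 and 0.0587). Gas1, also a co-receptor, did not pass (0.74, SE 0.328, adjusted p = 0.106). It held 3.27 to 6.96 RPM in the 3 KO libraries with title number 1, 0.574 to 1.99 RPM in those of number 2 and 0.505 to 2.01 RPM in the controls, and with number 1 alone it was called higher (1.38, adjusted p = 0.00383). Number 2 minus number 1 was -1.28 for Gas1 (adjusted p = 0.152) and -1.63 for Cdon (adjusted p = 0.191).

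Boc, also a co-receptor, stood at 30.4 RPM in the libraries labelled KO and 28.1 RPM in the controls (0.10, 95% interval -0.20 to 0.41; limma adjusted p = 0.655). Lrp2, an endocytic receptor that binds Sonic hedgehog, was the only one of the 48 called lower, at 2.01 RPM in the libraries labelled KO and 4.5 RPM in the controls (-1.04, SE 0.363, adjusted p = 0.0409). Its call ended without any 1 of WT replicates 1 or 3, Het replicates 1 or 4 or KO replicates 1, 2, 3 or 5 (adjusted p up to 0.1002), and using only KO replicates 4 to 6 it was -0.41 (adjusted p = 0.534).

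Among the genes of transduction, Tulp3, which brings receptors into the cilium and restrains the pathway, rose most. It stood at 6.59, 10.9, 7.85, 5.76, 2.73 and 6.31 RPM in KO replicates 1 to 6 and at 1.08 to 3.04 RPM in the controls, so that only KO replicate 5 overlapped them. The difference was 1.42 (SE 0.266, limma adjusted p = 0.000606). Mgrn1, a ubiquitin ligase that lowers Smoothened at the cell surface, rose by 0.44 (adjusted p = 0.0167). Spop, the adaptor of a ubiquitin ligase that marks GLI proteins, rose by 0.55 (adjusted p = 0.00362). Prkar1a, a regulatory subunit of protein kinase A, and Dync2h1, the motor of return transport in the cilium, rose by 0.24 and 0.35 (adjusted p = 0.0130 and 0.0151). The calls of Prkar1a, Dync2h1 and Mgrn1 ended with median-of-ratios scaling (adjusted p = 0.412, 0.188 and 0.103), and those of Dync2h1 and Mgrn1 with quantile normalization (0.0536 and 0.147). Against WT alone Spop (0.43, adjusted p = 0.0962), Mgrn1 (0.19, adjusted p = 0.430) and Dync2h1 (0.40, adjusted p = 0.0546) did not pass. Against Het alone Dync2h1 (0.31, adjusted p = 0.0683) and Prkar1a (0.21, adjusted p = 0.0650) did not.

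The responsive genes that rose were Igfbp3 (1.81, SE 0.365, limma adjusted p = 0.00114), Ccnd2 (1.19, SE 0.245, adjusted p = 0.00132), Nr5a1 (1.15, SE 0.134, adjusted p = 6.91e-06) and Igfbp6 (0.53, SE 0.178, adjusted p = 0.0331). Igfbp3 and Igfbp6 code for binding proteins of insulin-like growth factors, Ccnd2 for a cyclin, and Nr5a1 for a transcription factor of steroid-making cells that is also in the Leydig list. Igfbp3 held 7.58 to 31.7 RPM in the libraries labelled KO, against 0.505 to 8.99 RPM in the controls, with only KO replicate 6 below the highest control. The call of Igfbp6 ended with median-of-ratios scaling (adjusted p = 0.132), quantile normalization (0.198) and without any 1 of WT replicate 2, Het replicates 1, 3 or 4 or KO replicates 1, 2 or 3 (up to 0.0803). Against WT alone neither Igfbp3 (1.09, adjusted p = 0.0875) nor Ccnd2 (0.73, adjusted p = 0.0943) passed. Nr5a1 overlaps another listed gene on the other strand, which averaged 2.68 RPM over the 13 libraries. Nr5a1 itself held 88.2 RPM in the libraries labelled KO, 36.6 RPM in Het and 43.1 RPM in WT.

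**Figure D4:**
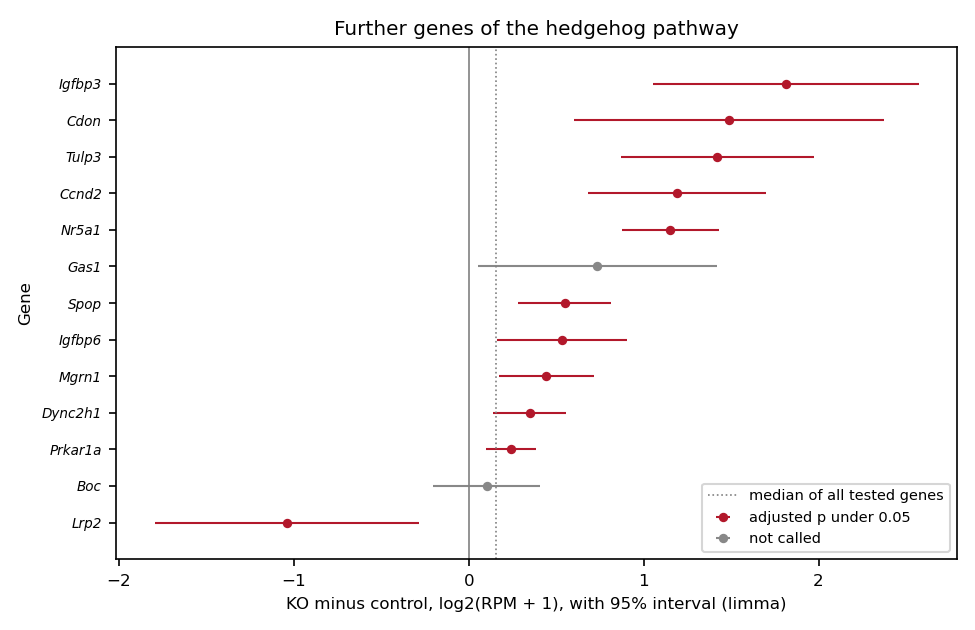
Difference of log2(RPM + 1), libraries labelled KO (n = 6) minus controls (n = 7), with 95% limma intervals, for 13 further genes of the pathway that the text describes; red marks the 11 with an adjusted p under 0.05, and the dotted line is the median of all tested genes at 0.16. Of the 11, 10 lie above 0, led by Igfbp3, Cdon and Tulp3, and Lrp2 lies below.

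Likeness over the 13 libraries was measured as the root mean square difference of log2(RPM + 1), each gene centred on its own mean. The search covered 10688 genes with at least 5 RPM on average. Genes with names of the form Gm plus digits, or ending in Rik, were left out of it. For Dhh, whose own root mean square deviation was 0.485, the closest were Psma7, a proteasome subunit (0.158), Slc29a1, a nucleoside transporter (0.165), and Prdx2, a peroxidase (0.168). For Ptch1 (own deviation 0.795) they were Apln, a peptide hormone gene (0.388), Nckap5 (0.401) and Arsg, a lysosomal sulfatase (0.406). For Gli1 (0.443) Fer, Etv5 and Flrt2 came closest at 0.307, 0.307 and 0.308, and for Hhip (0.578) Cdk13, Dab2ip and Bicd2 at 0.371, 0.377 and 0.379, so that for these 2 members most of the deviation was left.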

How the data were processed

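The authors deposited 1 table of log2 RPM for 13 libraries. Per the labels' protocols, about 2 ng of total RNA from whole testes without tunica albuginea went into Smart-seq2 with 11 PCR cycles. Per the submitters' processing notes, FastQC 0.11.8, Trim Galore 0.6.6 and mm10 were used; aligner, counter and strand setting: not given in the sources.

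Genes without reads sit at 0.9 read in the deposited log2 values and were set to 0, and at least 99.96% of the other values in each library were whole reads (within 0.01). Poisson intervals of read counts, also that of a count of 0, cover counting error only. Limma 3.58.1 (R 4.3.3, mean-variance trend, two-sided, Benjamini-Hochberg adjusted over all genes, threshold 0.05) was fitted to log2(RPM + 1) of the 16235 genes averaging 1 RPM or more, after being tested on simulated data. KO against Het, KO against WT and Het against WT shared a fit with 3 groups, and the title numbers a fit in which their KO libraries were separate groups. Limma-voom on recovered reads was an alternative. Exact permutation tests of single values enumerated all 1716 assignments of 6 and 7 libraries.

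Members, gene lists and tests were chosen with earlier results of these data known. Genes outside the members were named if they were called in KO against control, were the co-receptor genes Boc, Cdon or Gas1, were among the 3 Sertoli, Leydig or peritubular markers with the lowest adjusted p, or were the 3 most alike to Dhh, Ptch1, Gli1 or Hhip. Upstream sequences are from RefSeq (GRCm38.p6), which matched 7 of 8 members. Some genes counted in the lists are not reported here by name.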

Additional observations from a re-analysis of the deposited data

Results flagged for a closer look

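Smo in KO replicate 1 stood at 0.420 RPM (3 reads), while the other 5 libraries labelled KO held 3.79 to 6.38 RPM, a gap large for a group of 6. Of 24 groups of member values given this gap test it alone was far enough out, and chance alone passes about 1 group in 20. Without that library the difference of Smo from the controls was 1.12 (SE 0.404, limma adjusted p = 0.0519), against 0.77 with it.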

How the results depend on the processing

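The calls of Dhh (0.75 to 0.92 without any 1 library) and Ptch1 (1.10 to 1.43) held under all alternatives run except Dhh within title number 2 and Ptch1 where a mean of at least 5 RPM left it untested, so that 1 member was called in each of these settings. Without any 1 library 2 to 3 members were called. The count of all genes called, 3997, was 1515 within title number 2, 2137 using only KO replicates 4 to 6, 1525 against WT alone, and 3262 to 3997 without any 1 library. The count of further hedgehog genes called, 12, was 7 with limma-voom, 4 within number 2, 5 using only KO replicates 4 to 6, 3 against WT alone and 10 to 14 without any 1 library; these alternatives for the further genes were chosen after seeing the data. All of these settings except limma-voom compared fewer libraries. The cause of these changes was not tested.

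Signs of differences that were not called turned. Gli2 was -0.042 with quantile normalization, -0.11 with the title number as covariate, -0.47 within number 2, -0.45 using only KO replicates 4 to 6 and -0.007 against WT alone (-0.18 to 0.33 without any 1 library). Gli3 was -0.087, -0.10, -0.32 and -0.34 in the first 4 of these settings and -0.038 against Het alone (-0.049 to 0.31). Hhip was -0.062 with quantile normalization, -0.10 within number 2, 0.00 using only KO replicates 4 to 6 and -0.064 against WT alone (-0.071 to 0.27). Smo relative to Leydig markers was 0.25 with a pseudocount of 0.1 RPM and 0.21 within number 2 (-0.36 to 0.18 without any 1 library), and relative to Sertoli markers -0.006 to 0.52. Ptch1 relative to Sertoli markers was 0.80 and 0.99 with pseudocounts of 0.5 and 0.1 RPM (0.46 to 0.81 without any 1 library), and relative to peritubular markers 0.53 with the list's median and 0.91 within number 2 (0.65 to 1.02). Across the other alternatives Ptch1 relative to Leydig markers was 0.41 to 0.68 and Dhh relative to Sertoli markers 0.11 to 0.26, none past 0.05. Wfdc15a was -0.15 within number 2 (-0.86 to -0.46 without any 1 library).

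Same-numbered replicates did not deviate together (correlation -0.08 to 0.13 over 10 pairs, 1 of them over 0.1), so the replicate numbers do not pair the libraries. By title number, Het replicate 1 correlated at 0.11 to 0.13 with KO replicates 1 to 3 and at -0.13 to -0.10 with KO replicates 4 to 6. Deviations were taken from the mean of each group, so these ranges depend on each other, and they rest on 1 Het library. Over the 44 pairs with different replicate numbers the correlation ran from -0.13 to 0.18, highest between WT replicate 1 and Het replicate 2. With the title number as a covariate Dhh was 0.77 (limma adjusted p = 0.00335) and Ptch1 1.21 (adjusted p = 0.0113). With the replicate number as a block 3830 genes, 2 members and 15 further hedgehog genes were called (Dhh 0.93, limma adjusted p = 0.00143; Ptch1 1.001, adjusted p = 0.0355); no control carries the numbers 5 and 6. Gli1, Gli2, Gli3, Hhip and Smo had at most 12, 60, 31, 28 and 64 reads in a library, and their spread between libraries was wider than counting error; what each contributes to the missing calls was not tested.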
